A study of Mus musculus with 6 samples.

Results

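The genes of cholesterol and fatty acid synthesis were followed in the colon epithelium of *Zfp90*-deleted and control mice. They were chosen by name, as 34 genes of the mevalonate, sterol, SREBP and lipogenic pathways, and all 34 were found among the 52550 genes listed for each sample. The list holds 7 genes of the mevalonate pathway and 11 genes of the later sterol steps, together called the sterol branch (18 genes), 8 genes of fatty acid synthesis, 6 genes of sterol sensing and transport, and 2 genes of cholesterol efflux. RNA-seq had been performed on 3 Zfp90fl/fl and 3 Zfp90ΔIEC samples, and the question here was whether these genes differed between the genotypes and whether the sterol branch differed from the fatty acid branch.

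All mice were male and C57BL/6, and the sample labels give their age as 6 to 8 weeks, without saying at which step. In Zfp90ΔIEC mice, Cre recombinase under the *Villin* promoter removes a floxed stretch of *Zfp90*, a gene for a zinc finger protein, in intestinal epithelial cells, whereas Zfp90fl/fl mice carry the same floxed alleles without the deletion. Both genotypes had received the carcinogen azoxymethane (AOM, 10 mg/kg) and, starting 5 days later, 3 cycles of dextran sulfate sodium (DSS, 2% in the drinking water by the labels, whereas the study's methods give a higher concentration and a single starting age), which injures the colon, each cycle being 7 days of DSS and 14 days of regular water. There was no untreated group, and the colonic epithelium was released with 2.5 mM EDTA and 1 mM DTT on day 80. The mice of each genotype were housed apart, so that housing and genotype cannot be told apart. The titles of the samples gave the genotype, since the genotype label of 2 Zfp90ΔIEC samples names another gene number. The labels state only that the samples are separate, so p-values measure the spread between these samples.

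Cholesterol is built from acetyl-CoA through mevalonate, isoprenoid units, squalene and lanosterol, and long-chain fatty acids are built from the same acetyl-CoA by a separate set of enzymes. Both sets are classic targets of the SREBP transcription factors, which are escorted out of the endoplasmic reticulum by SCAP when sterols are scarce and are held there by the INSIG proteins when sterols are plentiful. Intestinal epithelial cells make cholesterol for their own membranes, take it up from the lumen and export it through ABC transporters.

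Each value is an FPKM, the number of fragments per kilobase of transcript and per M mapped fragments, so levels can be compared between genes per length. Testing on log2(FPKM + 1) covered genes that reached 1 FPKM in 3 or more samples and used limma, a linear model that shares information on the spread across genes, and p-values were adjusted by Benjamini-Hochberg over all 11564 genes tested. A log2 fold change is Zfp90ΔIEC minus Zfp90fl/fl on that scale, which understates the change of genes near 1 FPKM. Of all genes tested, 23 (0.199%) had an adjusted p under 0.05, and the median log2 fold change was -0.02. *Zfp90* itself lay below the filter, at 0.490 to 0.630 FPKM in Zfp90fl/fl and 0.0846 to 0.195 FPKM in Zfp90ΔIEC samples, without overlap (log2 fold change -0.44, adjusted p = 0.123 in the limma fit with no filter). Sequencing depth, estimated from the steps between low values, lay between 25.6 and 28.6 M fragments in the 6 samples. Epithelial markers were abundant, with *Epcam* at 554 to 608 FPKM, whereas the 6 smooth muscle and 5 endothelial markers stayed under 1 FPKM in every sample, as did 6 of 7 fibroblast markers.

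No gene of the list passed the threshold. Of the 34 genes, 32 passed the filter and 0 of these had an adjusted p under 0.05 by limma, against 0.199% of all genes tested, and 3 had an unadjusted p under 0.05 (*Scd1*, *Scd2* and *Cyp51*), against 14.6% of all genes tested. The log2 fold change was below 0 for 29 of the 32, against 57.2% of all genes tested, and their median was -0.10. The values of the genotypes did not overlap for 3 of the 32, against 21.3% of all genes tested. *Scd1* was higher in Zfp90ΔIEC samples without overlap, as were 8.73% of all genes tested. *Scd2* and *Stard4* were lower in Zfp90ΔIEC samples without overlap, as were 12.6% of all genes tested.

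**Figure D1:**
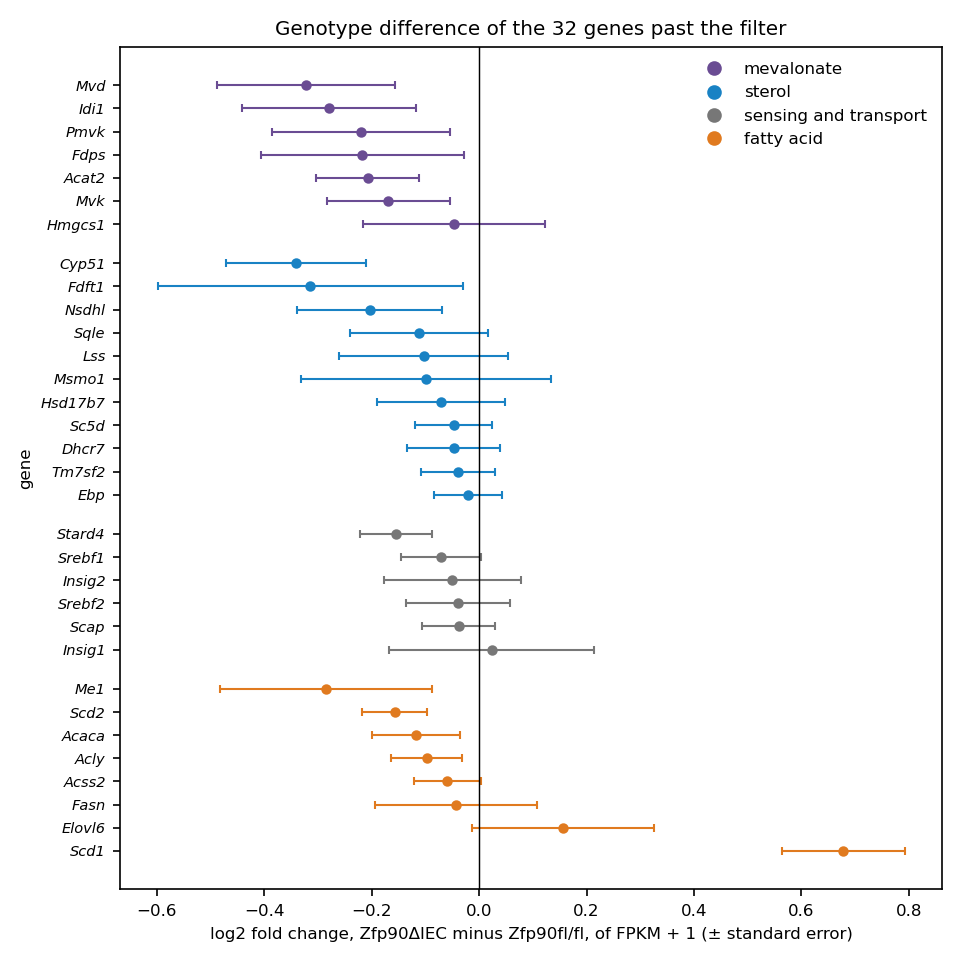
Log2 fold change (Zfp90ΔIEC minus Zfp90fl/fl, FPKM + 1; x axis) of the 32 genes past the filter (y axis), with bars for the standard error and colours for the pathway step. All 18 sterol branch points lie left of 0, between -0.34 and -0.02, and *Scd1* at 0.68 lies apart from the rest on the right.

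The 7 mevalonate genes were all measured well above the filter, and their log2 fold changes ran from -0.32 to -0.05 with a median of -0.22. *Acat2*, whose enzyme joins acetyl-CoA units at the head of the pathway, averaged 16.3 ± 1.64 FPKM in Zfp90fl/fl and 14.0 ± 1.36 FPKM in Zfp90ΔIEC samples (SD, n = 3 each, as for all means below). *Hmgcs1*, which makes HMG-CoA, was the most abundant of the group per length, with 66.0, 95.4 and 80.5 FPKM in Zfp90fl/fl and 68.9, 95.6 and 69.6 FPKM in Zfp90ΔIEC replicates 1, 2 and 3. Replicate 2 was the highest in both genotypes and the genotypes overlapped nearly whole (log2 fold change -0.05, standard error 0.17, adjusted p = 0.919 by limma with Benjamini-Hochberg adjustment).

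*Mvd*, which decarboxylates mevalonate diphosphate to the first isoprenoid unit, had the lowest log2 fold change of the mevalonate genes. It was measured at 18.8, 25 and 20.6 FPKM in Zfp90fl/fl and at 14.9, 21.7 and 14.8 FPKM in Zfp90ΔIEC replicates 1, 2 and 3. Zfp90ΔIEC replicate 2 lay within the Zfp90fl/fl range while the other two lay below it (log2 fold change -0.32, standard error 0.166, 95% interval -0.72 to 0.07, adjusted p = 0.428 by limma). *Idi1*, which isomerizes that unit, showed the same layout, with 34.5, 44.5 and 43.5 FPKM in Zfp90fl/fl and 28.5, 42.1 and 30.6 FPKM in Zfp90ΔIEC samples (log2 fold change -0.28, adjusted p = 0.477 by limma). The mevalonate kinases *Mvk* and *Pmvk* and the farnesyl diphosphate synthase *Fdps* had log2 fold changes of -0.17, -0.22 and -0.22. Of these genes, *Fdps*, *Acat2* and *Idi1* share 86.4%, 45.9% and 21.3% of the 50-base windows of their transcript with other annotated genes (mostly *Gm43738*, *Acat3* and *Gm13502*), so that their FPKM depends on how shared reads were assigned.

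The 11 genes of the later sterol steps had a median log2 fold change of -0.10. *Cyp51*, the lanosterol 14α-demethylase, was measured at 30.8, 39.7 and 35.2 FPKM in Zfp90fl/fl and at 24.7, 32.6 and 25.7 FPKM in Zfp90ΔIEC replicates 1, 2 and 3. Zfp90ΔIEC replicates 1 and 3 lay below every Zfp90fl/fl sample, and Zfp90ΔIEC replicate 2 lay between Zfp90fl/fl replicates 1 and 3. Its log2 fold change of -0.34 was the lowest of the list (standard error 0.13, 95% interval -0.65 to -0.03), with an unadjusted p of 0.0345 and an adjusted p of 0.306 by limma.

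*Fdft1*, the squalene synthase that commits farnesyl diphosphate to sterols, varied most among replicates. It was measured at 14.5, 30.1 and 24.1 FPKM in Zfp90fl/fl and at 12.9, 18.3 and 22.5 FPKM in Zfp90ΔIEC replicates 1, 2 and 3. The Zfp90fl/fl samples alone spanned most of the range, and the genotypes overlapped (log2 fold change -0.31, standard error 0.284, adjusted p = 0.661 by limma). *Msmo1*, a C4-methylsterol oxidase, had its lowest value of 12.6 FPKM and its highest of 26.0 FPKM both in Zfp90ΔIEC samples, replicates 1 and 2, which enclosed the Zfp90fl/fl range of 17.6 to 20.1 FPKM.

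*Nsdhl*, which works with *Msmo1* in removing the C4 methyl groups, had a log2 fold change of -0.20 (adjusted p = 0.545 by limma). The squalene epoxidase *Sqle*, a rate-limiting step, averaged 21.7 ± 1.90 FPKM in Zfp90fl/fl and 20.2 ± 3.75 FPKM in Zfp90ΔIEC samples, and the lanosterol synthase *Lss*, the scarcest gene of the branch per length, averaged 4.95 ± 0.666 and 4.60 ± 1.20 FPKM. The other sterol genes had log2 fold changes of -0.07 for the reductase *Hsd17b7*, -0.05 for the desaturase *Sc5d*, -0.05 for the reductase *Dhcr7*, -0.04 for the reductase *Tm7sf2* and -0.02 for the isomerase *Ebp*. For *Ebp*, the 95% interval of -0.17 to 0.13 bounds the difference to a small one on this scale.

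In the sterol branch as a whole, 18 of 18 genes had a log2 fold change below 0, against 57.2% of all genes tested, with a median of -0.14. None of the 18 separated the genotypes (0 of 18, against 21.3% of all genes tested), and adjusted p-values ran from 0.306 to 0.919. The count was 12 of 18 without Zfp90fl/fl replicate 2 and 15 of 18 without Zfp90ΔIEC replicate 1 or replicate 3, and it was 17 of 18 with median ratio scaling. The branch median was -0.07 without Zfp90fl/fl replicate 2, -0.07 without Zfp90ΔIEC replicate 1, -0.06 without Zfp90ΔIEC replicate 3 and -0.28 without Zfp90ΔIEC replicate 2. These genes belong to 1 pathway and move together across samples, so the 18 are not separate pieces of evidence.

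Much of the spread lay between samples of the same genotype. Replicate 2 held the highest value in both genotypes for 14 of the 18 sterol branch genes and for 24 of the 32 genes past the filter, against 15.4% of all genes tested. The labels do not say whether replicate numbers pair the mice across genotypes. A shared batch therefore cannot be told apart from 2 samples that were high together. The median SD of log2(FPKM + 1) within a genotype was 0.2 for the sterol branch, 0.136 for the fatty acid branch and 0.115 for the sensing and transport genes, against 0.1 for all genes tested.

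**Figure D2:**
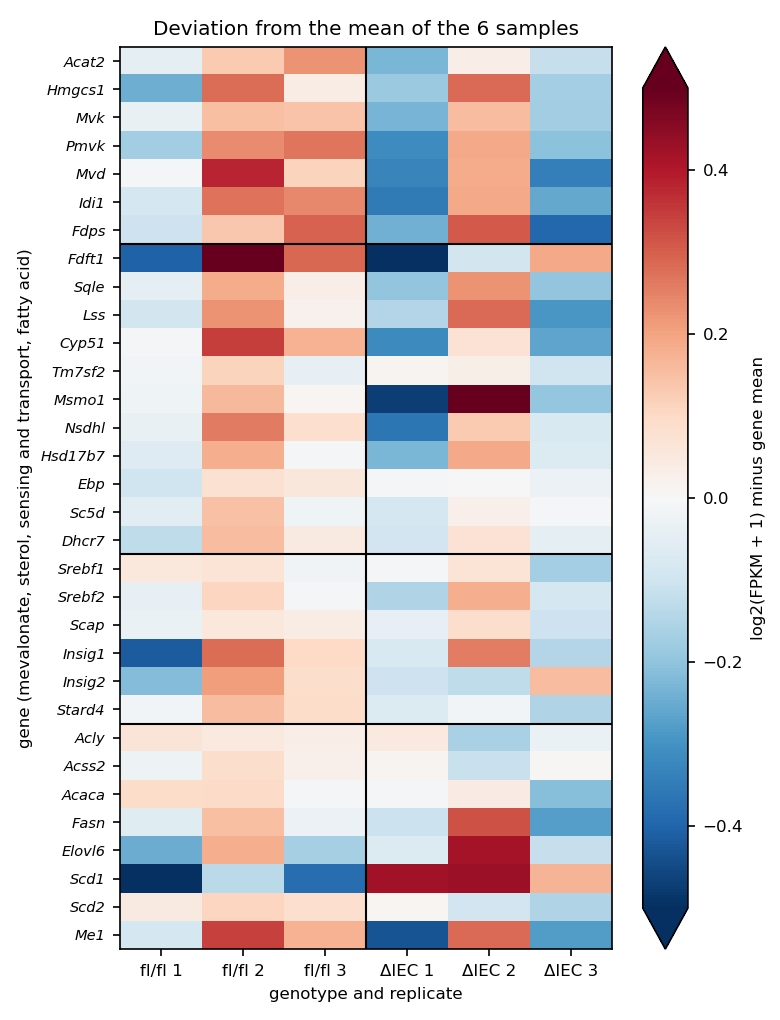
Deviation of log2(FPKM + 1) from the mean of the 6 samples (colour) for the 32 genes past the filter (rows, from mevalonate at the top to fatty acid at the bottom) in each sample (columns, with the vertical line between the genotypes). The second column of each genotype is red for most sterol branch genes, and the outer Zfp90ΔIEC columns are mostly blue, while *Scd1* near the bottom separates the genotypes.

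The genes that sense and move sterols differed little. *Srebf2*, which encodes the SREBP that chiefly drives cholesterol synthesis, was measured at 31.7, 35.3 and 32.5 FPKM in Zfp90fl/fl and at 29.3, 37.2 and 30.7 FPKM in Zfp90ΔIEC replicates 1, 2 and 3. The Zfp90ΔIEC samples spanned the Zfp90fl/fl range on both sides (log2 fold change -0.04, standard error 0.097, 95% interval -0.27 to 0.19, adjusted p = 0.888 by limma). *Srebf1*, which chiefly drives fatty acid synthesis, was measured at 12.0, 12.1 and 11.4 FPKM in Zfp90fl/fl and at 11.4, 12.1 and 10.1 FPKM in Zfp90ΔIEC samples. Only Zfp90ΔIEC replicate 3 lay clearly below the rest (log2 fold change -0.07, 95% interval -0.25 to 0.11, adjusted p = 0.711 by limma). These are transcript levels, and processing of the SREBP proteins was not measured.

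*Scap*, the escort of the SREBPs, was measured at 7.67, 8.19 and 8.10 FPKM in Zfp90fl/fl and at 7.62, 8.42 and 7.25 FPKM in Zfp90ΔIEC replicates 1, 2 and 3, and the Zfp90fl/fl values lay inside the Zfp90ΔIEC range. *Insig1*, a retention protein that is itself an SREBP target, was measured at 32.3, 53.0 and 46.7 FPKM in Zfp90fl/fl and at 41.2, 52.1 and 39.2 FPKM in Zfp90ΔIEC replicates 1, 2 and 3. Its lowest and highest values were both Zfp90fl/fl samples (log2 fold change 0.02, standard error 0.191, adjusted p = 0.965 by limma). *Insig2*, its paralog, was measured at 7.25, 10.1 and 9.19 FPKM in Zfp90fl/fl and at 7.94, 7.80 and 9.67 FPKM in Zfp90ΔIEC samples, again with overlap and a log2 fold change of -0.05. The sign of these small differences for *Srebf2*, *Scap*, *Insig1* and *Insig2* turned when single samples were left out.

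*Stard4*, a carrier of cholesterol between membranes and an SREBP-2 target, was the one gene of this group without overlap. It was measured at 59.9, 67.3 and 64.4 FPKM in Zfp90fl/fl and at 57.5, 59.8 and 54.3 FPKM in Zfp90ΔIEC replicates 1, 2 and 3. Every Zfp90ΔIEC sample was lower, though the highest of them lay just under the lowest Zfp90fl/fl sample (log2 fold change -0.15, standard error 0.0663, adjusted p = 0.346 by limma). The efflux transporters *Abca1* and *Abcg1*, targets of the oxysterol receptor LXR, lay under the filter. *Abca1* was measured at 0.853, 0.738 and 0.527 FPKM in Zfp90fl/fl and at 0.892, 0.472 and 0.782 FPKM in Zfp90ΔIEC replicates 1, 2 and 3. *Abcg1* was measured at 0.260, 0.322 and 0.492 FPKM in Zfp90fl/fl and at 0.353, 0.198 and 0.341 FPKM in Zfp90ΔIEC samples. Both overlapped, with log2 fold changes of 0.0043 and -0.06 in the limma fit with no filter (adjusted p = 0.997 and 0.804).

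The promoters of the sterol branch are shown because its genes moved together across samples and SREBP and its known partners bind short motifs near gene starts. SREBP binds a sterol response element and commonly acts beside NF-Y, the factor that binds CCAAT boxes. In RefSeq promoters of GRCm38.p6, from 250 bases before to 50 bases after each start, a promoter was found for 27 of the 34 genes (there was no entry for *Fdps*, *Fdft1*, *Sqle*, *Stard4*, *Scd1*, *Scd2* and *Abcg1*). The next 5 lines give the 160 bases before the start of 3 mevalonate or sterol genes that carry CCAAT boxes in different numbers, of *Hmgcs1*, which also holds a sterol response element, and of the sensing gene *Insig1*, which holds an E-box and no CCAAT box there, each 5′ to 3′ on the strand of its gene. Capitals mark CCAAT or its reverse complement ATTGG, the sterol response element TCACCCCAC in *Hmgcs1* and the E-box CACGTG in *Insig1*.
Hmgcs1: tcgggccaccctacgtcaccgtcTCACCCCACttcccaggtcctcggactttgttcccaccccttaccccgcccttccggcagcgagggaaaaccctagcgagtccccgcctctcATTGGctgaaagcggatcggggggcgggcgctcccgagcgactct
Idi1: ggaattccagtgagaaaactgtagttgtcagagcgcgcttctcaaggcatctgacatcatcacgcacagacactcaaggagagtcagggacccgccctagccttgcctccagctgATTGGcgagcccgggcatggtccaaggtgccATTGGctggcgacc
Cyp51: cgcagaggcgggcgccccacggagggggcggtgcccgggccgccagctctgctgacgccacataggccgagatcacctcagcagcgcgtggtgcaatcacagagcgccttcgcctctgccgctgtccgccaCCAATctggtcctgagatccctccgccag
Msmo1: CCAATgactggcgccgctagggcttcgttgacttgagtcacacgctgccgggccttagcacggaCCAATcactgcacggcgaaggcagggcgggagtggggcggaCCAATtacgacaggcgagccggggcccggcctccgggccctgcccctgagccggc
Insig1: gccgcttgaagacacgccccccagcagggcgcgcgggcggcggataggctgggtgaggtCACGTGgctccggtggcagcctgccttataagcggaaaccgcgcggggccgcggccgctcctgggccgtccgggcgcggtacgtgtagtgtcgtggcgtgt
The stretches lie at chr13:119690191-119690350 (plus strand) for *Hmgcs1*, chr13:8885446-8885605 (plus) for *Idi1*, chr5:4104698-4104857 (minus) for *Cyp51*, chr8:64733579-64733738 (minus) for *Msmo1* and chr5:28071252-28071411 (plus) for *Insig1*. *Msmo1* holds 3 CCAAT boxes in this stretch, *Idi1* holds 2, and *Cyp51* and *Hmgcs1* hold 1 each.

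A gene with several listed starts was counted where any of them held the motif, for these genes and for all 27025 genes of the promoter table alike. A CCAAT box on either strand was found in 14 of the 15 sterol branch genes with a promoter (93.3%), in 4 of 5 sensing and transport genes and in 4 of 6 fatty acid genes, against 41.1% of all genes. Counted by promoter, it was found in 14 of 18 promoters of the sterol branch, 5 of 10 of the sensing and transport genes and 4 of 7 of the fatty acid genes, against 37.4% of all 32851 promoters of this length. The sterol response element, searched as TCACNCCAC on both strands, was found in 1 of the 15 (*Hmgcs1*), against 1.44% of all genes. The E-box CACGTG was found in 3 of the 15 and in 6 of the 27, against 8.09% of all genes, and the LXR element, a repeat of AGGTCA with a spacer, in 0 of the 27, against 0.0148%. None of these motifs contains another. The motifs are matches of letters, and binding was not measured.

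Of the 8 fatty acid genes, 6 had a log2 fold change below 0 and 2 above it, with a median of -0.08 and a range of -0.29 to 0.68. *Scd1*, a stearoyl-CoA desaturase that makes monounsaturated fatty acids, differed most. It was measured at 11.8, 15.4 and 12.9 FPKM in Zfp90fl/fl and at 23.1, 23.3 and 19.3 FPKM in Zfp90ΔIEC replicates 1, 2 and 3. Every Zfp90ΔIEC sample exceeded every Zfp90fl/fl sample, by 1.64-fold on the means (13.4 ± 1.88 against 21.9 ± 2.27 FPKM). Its log2 fold change was 0.68 (standard error 0.114, 95% interval 0.41 to 0.95), with an unadjusted p of 6.02e-04, and its adjusted p of 0.0797 by limma with Benjamini-Hochberg adjustment missed the threshold, as it did under every alternative (0.0734 to 0.209).

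*Scd2*, a second desaturase of the same activity, was the most abundant gene of the list per length and lay on the other side. It was measured at 245, 256 and 251 FPKM in Zfp90fl/fl and at 239, 222 and 213 FPKM in Zfp90ΔIEC replicates 1, 2 and 3. All Zfp90ΔIEC samples were lower (log2 fold change -0.16, standard error 0.0606, unadjusted p = 0.036, adjusted p = 0.309 by limma). *Scd1* thus made up 4.59% to 5.69% of the summed FPKM of both genes in Zfp90fl/fl and 8.29% to 9.50% in Zfp90ΔIEC samples, while the sum itself was 264 ± 7.40 FPKM against 247 ± 14.9 FPKM. The transcripts share 145 of the 4783 windows of 50 bases in *Scd1*, and *Scd1* shares 4.66% of its windows with any other gene, mostly *Scd3*.

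*Me1*, the malic enzyme that supplies NADPH for synthesis, was measured at 5.98, 8.42 and 7.37 FPKM in Zfp90fl/fl and at 4.50, 8.04 and 5.11 FPKM in Zfp90ΔIEC replicates 1, 2 and 3. Replicate 2 was the highest in both genotypes, and the genotypes overlapped (log2 fold change -0.29, standard error 0.197, adjusted p = 0.556 by limma). *Me1* and *Acaca* share 26.5% and 52.6% of their windows with other annotated genes, mostly *Gm7049* and *Gm5182*. The core enzymes lay near 0. *Acly*, which splits citrate into cytosolic acetyl-CoA, averaged 75.6 ± 0.873 FPKM in Zfp90fl/fl and 70.7 ± 5.28 FPKM in Zfp90ΔIEC samples (log2 fold change -0.10). *Fasn*, the fatty acid synthase, averaged 22.2 ± 1.87 and 21.8 ± 4.99 FPKM, with a 95% interval of -0.40 to 0.31 around its log2 fold change of -0.04. The acetyl-CoA synthetase *Acss2* and the acetyl-CoA carboxylase *Acaca* had log2 fold changes of -0.06 and -0.12, and the elongase *Elovl6* one of 0.16 (adjusted p = 0.718 by limma).

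**Figure D3:**
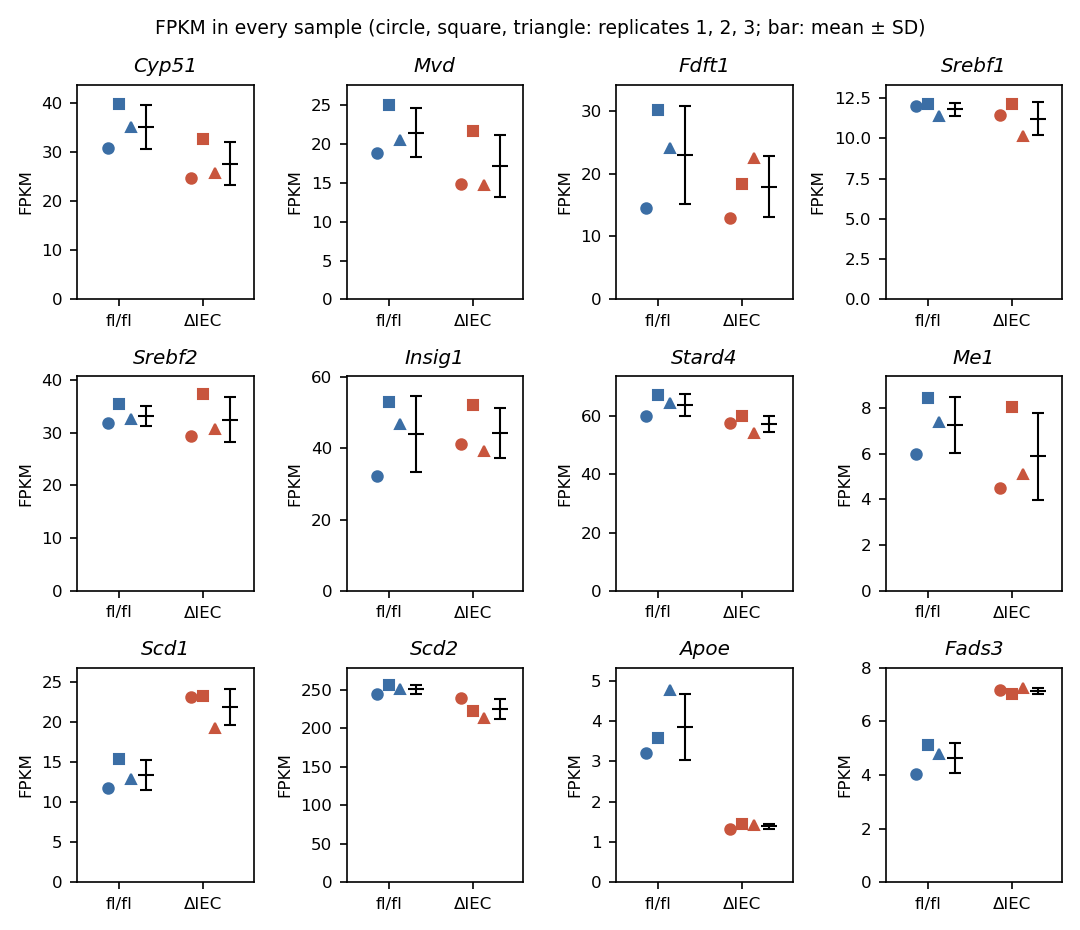
FPKM (y axis, from 0) of 12 genes in every sample, with circles, squares and triangles for replicates 1, 2 and 3, blue for Zfp90fl/fl and red for Zfp90ΔIEC, and a bar for the mean ± SD. *Scd1* and *Fads3* are higher and *Scd2*, *Stard4* and *Apoe* lower in all Zfp90ΔIEC samples, whereas the genotypes overlap for *Cyp51*, *Mvd*, *Fdft1*, *Srebf1*, *Srebf2*, *Insig1* and *Me1*.

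The branches were then set side by side within each sample. The mean log2(FPKM + 1) of the 18 sterol branch genes was 4.06, 4.38 and 4.26 in Zfp90fl/fl and 3.91, 4.31 and 4.0 in Zfp90ΔIEC replicates 1, 2 and 3, with overlap. That of the 8 fatty acid genes was 4.45, 4.65 and 4.51 in Zfp90fl/fl and 4.52, 4.68 and 4.43 in Zfp90ΔIEC samples, with group means of 4.54 ± 0.103 and 4.54 ± 0.127. The sterol minus the fatty acid level was -0.39, -0.27 and -0.24 in Zfp90fl/fl and -0.61, -0.37 and -0.43 in Zfp90ΔIEC samples. Its group means differed by -0.17 and its ranges overlapped, since Zfp90ΔIEC replicate 2 lay just above Zfp90fl/fl replicate 1. Without *Scd1*, the group means of this difference were -0.40 and -0.47 and differed by -0.07. Without Zfp90ΔIEC replicate 1, and with *Scd1* kept, the group means differed by -0.10. No p-value is given for these means, since the genes were chosen with earlier results known.

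**Figure D4:**
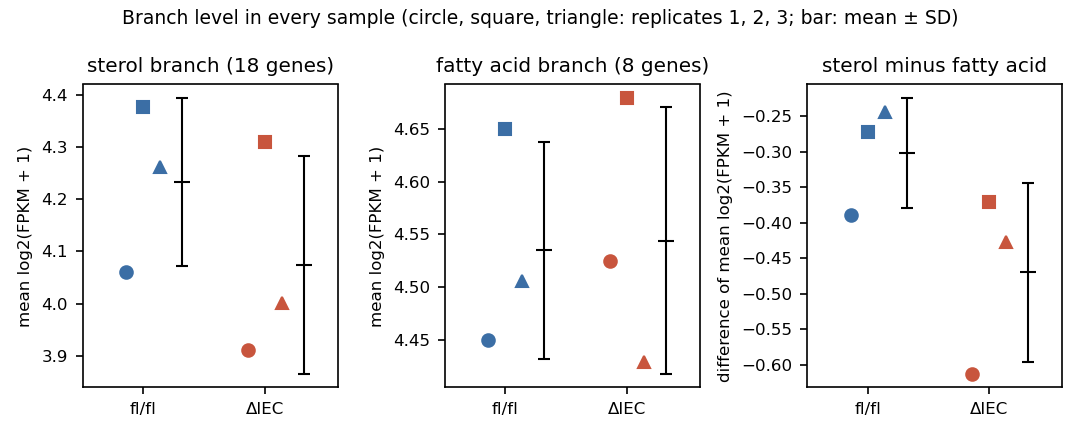
Mean log2(FPKM + 1) of the sterol branch (left) and of the fatty acid branch (middle), and their difference (right), in every sample, with circles, squares and triangles for replicates 1, 2 and 3 and bars for the mean ± SD; the y axes do not start at 0. The square lies highest for both branches in both genotypes, and the genotypes overlap in every panel.

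The other genes of lipid handling were read from a list of 87, of which 86 were found and 74 passed the filter. Of these 74, 1 had an adjusted p under 0.05 by limma, against 0.199% of all genes tested, 12 had an unadjusted p under 0.05, against 14.6%, and 14 separated the genotypes, against 21.3%. The log2 fold change was below 0 for 44 and above 0 for 30, with a median of -0.04. No gene passed the threshold among the 5 tested genes of other sterol steps, the 10 of isoprenoid use, the 16 of SREBP control or the 28 of fatty acid handling. The 1 gene that did was among the 15 of uptake, storage and transport.

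That gene was *Apoe*, the apolipoprotein that carries cholesterol between cells and is also made by macrophages. It was measured at 3.22, 3.58 and 4.76 FPKM in Zfp90fl/fl and at 1.32, 1.44 and 1.43 FPKM in Zfp90ΔIEC replicates 1, 2 and 3. It fell in all Zfp90ΔIEC samples (log2 fold change -1.01, standard error 0.119, adjusted p = 0.0434 by limma), and lost the threshold in 6 of 12 alternatives (adjusted p from 0.0275 to 0.126). All 16 of 16 leukocyte markers also had a lower mean in Zfp90ΔIEC samples, among them the macrophage gene *Lyz2*, at 3.11 to 4.81 FPKM in Zfp90fl/fl and 1.61 to 1.87 FPKM in Zfp90ΔIEC samples, and *Itgam*, at 0.928 to 1.01 and 0.132 to 0.180 FPKM. Of the 16, 9 were lower without overlap, and 11 stayed under 1 FPKM in every sample. Only 3 of the 16 passed the filter, and 1 of these 3 was lower without overlap, against 12.6% of all genes tested. The summed level of the 16 ran from 23.8 to 40.3 FPKM in Zfp90fl/fl and from 6.12 to 32.5 FPKM in Zfp90ΔIEC samples. The most abundant of them, *Cd74*, overlapped, at 13.9 to 28.7 FPKM in Zfp90fl/fl and 2.24 to 26.9 FPKM in Zfp90ΔIEC samples. *S100a8* and *S100a9* are listed at 0 in every Zfp90ΔIEC sample. The part of leukocytes in the *Apoe* difference was not tested, and fewer cells of a type cannot be told apart from less RNA per cell in these bulk samples.

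Of the other lipid genes past the filter, the highest log2 fold changes were those of *Abcg5* and *Fads3*, and the lowest were those of *Apoe* and *Agpat2*. *Abcg5*, which with its partner returns sterols to the gut lumen, was measured at 2.32, 2.56 and 1.79 FPKM in Zfp90fl/fl and at 5.09, 2.25 and 4.93 FPKM in Zfp90ΔIEC replicates 1, 2 and 3. Zfp90ΔIEC replicate 2 lay within the Zfp90fl/fl range (log2 fold change 0.61, standard error 0.245, adjusted p = 0.323 by limma). *Fads3*, a member of the fatty acid desaturase family, was measured at 4.03, 5.11 and 4.79 FPKM in Zfp90fl/fl and at 7.16, 7.02 and 7.25 FPKM in Zfp90ΔIEC samples. It separated the genotypes without passing the threshold (log2 fold change 0.53, standard error 0.0819, adjusted p = 0.0664 by limma). *Agpat2*, an acyltransferase of triglyceride and phospholipid synthesis, was measured at 30.4, 40.3 and 33.7 FPKM in Zfp90fl/fl and at 29.4, 17.2 and 13.9 FPKM in Zfp90ΔIEC samples, where replicate 1 lay just under the Zfp90fl/fl range (log2 fold change -0.82, standard error 0.253, adjusted p = 0.222 by limma).

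**Figure D5:**
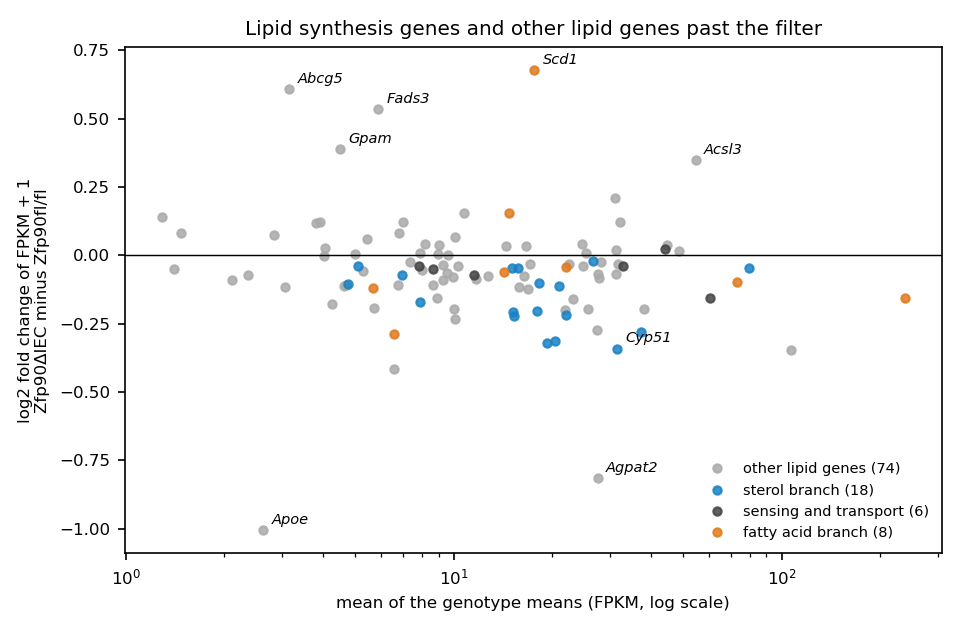
Log2 fold change (Zfp90ΔIEC minus Zfp90fl/fl, FPKM + 1; y axis) against the mean of the genotype means (FPKM, log scale; x axis) for the 32 genes of cholesterol and fatty acid synthesis past the filter (colours) and 74 other lipid genes (grey). The sterol branch lies in a narrow band under 0, and *Scd1* and *Apoe* lie farthest from 0 in their sets, at 0.68 and -1.01.

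Markers of other cell types and states were read beside these results. Of 7 surface colonocyte markers, 6 had a higher mean in Zfp90ΔIEC samples and 5 were higher without overlap, against 8.73% of all genes tested. Of the 7, 1 passed the threshold, against 0.199% of all genes tested (*Cyp2c55*, log2 fold change 2.12, adjusted p = 0.00823 by limma). Their summed level was 5341 to 7034 FPKM in Zfp90fl/fl and 8565 to 12969 FPKM in Zfp90ΔIEC samples. Most of it came from *Car1*, at 4033 to 10059 FPKM over all samples. All 7 of 7 proliferation markers were higher without overlap, against the same 8.73%. Of these 7, 1 passed the threshold, against the same 0.199% (*Mki67*, log2 fold change 0.41, adjusted p = 0.0478 by limma). Their summed level was 97.2 to 105 FPKM in Zfp90fl/fl and 121 to 132 FPKM in Zfp90ΔIEC samples. Adipocytes express *Scd1* strongly, and of 10 adipocyte markers 7 stayed under 1 FPKM in every sample, among them *Adipoq* at 0.102 to 0.387 FPKM. The summed level was 33.9 to 36.9 FPKM in Zfp90fl/fl and 33.7 to 42.2 FPKM in Zfp90ΔIEC samples, most of it from *Pnpla2* (27.1 to 33.5 FPKM over all samples), a lipase also used outside fat. *Cidec*, a lipid droplet protein, was the 1 marker of the 10 that was higher without overlap, against the same 8.73% of all genes tested. It was among the 3 adipocyte markers past the filter. *Cidec* was measured at 1.29 to 1.58 FPKM in Zfp90fl/fl and 1.59 to 3.77 FPKM in Zfp90ΔIEC samples (log2 fold change 0.53, adjusted p = 0.313 by limma). The part of these cell states in the levels of *Scd1*, *Scd2* and the sterol branch was not tested.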

How the data were processed

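The authors deposited a value per gene and sample that was taken as FPKM, judged by the methods and the numbers themselves, because no file names a unit. The methods name TopHat, Cuffdiff and a human genome, whereas the submitters' processing notes list FastQC, STAR 2.5, Cuffnorm, DESeq 1.22.1 and mm9, and the files list mouse Ensembl genes. Libraries were labelled strand-specific, and use of strand in counting is not given in the sources used here. FPKM hold no counts. Steps between low values gave an estimate of depth per sample, with 57.7% to 63.2% of the 1435 to 1500 values used lying near whole fragments (within 0.1 fragment), too few to recover reads. Symbols were found for 52403 genes and not for 147 (GENCODE M21 and gene tables of GRCm38).

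From the deposited FPKM, log2(FPKM + 1) was fitted with limma 3.58.1 in R 4.3.3 (genotype only, intensity trend, Benjamini-Hochberg over the 11564 genes that reached 1 FPKM in 3 or more samples, threshold of an adjusted p under 0.05), and the procedure was tested on simulated data. Genes below the filter take their values from the same fit with no filter. Figures were drawn with matplotlib 3.10.9 in Python 3.11.15. A value in every sample is given for genes of the list and other lipid genes past the threshold, for the 3 of largest absolute log2 fold change in the sterol and in the fatty acid branch, for the genes of sensing, transport and efflux, and, of the other lipid genes, for the 2 of largest rise and the 2 of largest fall, and any further gene was chosen with its values in view. The genes and lists were chosen with earlier results of these data known. Alternatives were quantile normalization, no intensity trend, a pseudocount of 0.1, median ratio scaling, no filter, a replicate block and leaving out each sample.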

Additional observations from a re-analysis of the deposited data

How the results depend on the processing

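Of the 34 genes of cholesterol and fatty acid synthesis, 0 passed the threshold in limma under each of the 12 alternatives, with 3 at an unadjusted p under 0.05 as first fitted. The count over all genes of 23 became 13 with a pseudocount of 0.1, 15 with no filter, 47 with the replicate block, and 10 to 21 when a sample was left out, and the share of lower calls of 65.2% became 76.2% with no intensity trend, 30% (3 of 10) without Zfp90fl/fl replicate 2 and 52.4% to 72.2% without 1 of the other samples. The 1 call among other lipid genes (*Apoe*) became 0 with no filter and 0 to 1 when a sample was left out.

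The labels do not say whether replicate numbers pair the samples. Deviations of same-numbered samples correlated at 0.194, 0.110 and 0.0782 over all genes tested. Over the 18 sterol branch genes they correlated at 0.532, -0.0848 and 0.132. These correlations run across genes and leave out any shift that all genes of a sample share. They therefore cannot show whether same-numbered samples were high or low together as a branch. No gene of the list was called with the replicate block. With that block, the adjusted p by limma fell from 0.306 to 0.116 for *Cyp51* and from 0.428 to 0.155 for *Mvd*. For *Scd1* it rose from 0.0797 to 0.0883. A pairing or shared batch was not tested. Of 216 values of 18 named genes under the alternatives, 198 kept direction and side of the threshold, 6 (all *Apoe*) lost the call and 12 turned sign, all of genes with log2 fold changes near 0. *Abca1* was -0.000466 with a pseudocount of 0.1. When a sample was left out, *Abca1* ran from -0.0733 to 0.111, *Insig1* from -0.18 to 0.17, *Srebf2* from -0.139 to 0.0275, *Insig2* from -0.172 to 0.0411, *Scap* from -0.0918 to 0.0041 and *Abcg1* from -0.117 to 0.0056. The cause of these shifts was not tested. The sterol branch median ran from -0.28 to -0.06, that of the fatty acid branch from -0.11 to -0.05, and the sterol minus fatty acid difference between genotypes from -0.22 to -0.10. The files hold no counts, so counting error could not be separated from the spread between samples.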
